A study of Mus musculus with 10 samples.

Results

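Albumin and the plasma carriers of hormones and vitamins are made by hepatocytes and secreted into blood. Their messenger RNAs were measured here in mouse livers after silencing of Rab5, the small GTPase family that organises early endosomes. The 7 genes considered were Alb, Ttr, Serpina6, Serpina7, Rbp4, Gc and Ahsg, and every probe set with one of these as its only symbol was taken. Such probe sets numbered 9 and covered 6 of the 7 genes, out of 18193 named genes and 45037 probe sets in all. In the annotation used, no probe set had Gc as its only symbol, so Gc was not analysed here. Ttr had 4 probe sets and the other genes 1 each, and all 9 probe sets passed the filter on low values. Serpina6 was chosen by its measured values, a large fall with Rab5 siRNA against control siRNA, so it is described here with no test. The other genes were included as carriers of the same kind.

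The livers came from male C57BL/6 NHsd mice, and every group shared this strain and sex. In 2 livers the mice had received PBS alone. In 4 livers the mice had received lipid nanoparticles with a control siRNA, called scrambled in the sample titles and directed to luciferase in the design text. In the other 4 livers the nanoparticles carried siRNAs against all Rab5 genes. Both siRNAs were given at 1.5 mg/kg through the tail vein and the livers were taken on day 5. Age was not given in the sources used here, and no other set of Rab5 siRNAs was among the groups. The titles number the livers of a group without calling them separate mice, and the p-values then speak only of the spread among these 10 samples, which may be technical. Whole liver was measured, in which fewer hepatocytes and less RNA per hepatocyte cannot be told apart.

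Albumin carries fatty acids, steroids and many other ligands at low affinity. Corticosteroid-binding globulin, the product of Serpina6, carries glucocorticoids, and thyroxine-binding globulin, the product of Serpina7, carries thyroid hormones. Transthyretin (Ttr) binds thyroxine and also the retinol-binding protein Rbp4, which transports vitamin A out of the liver. Fetuin-A, encoded by Ahsg, binds calcium phosphate and keeps it in solution, and Gc is the vitamin D-binding protein. Albumin, transthyretin and Rbp4 are among the classical negative acute phase proteins, whose hepatic synthesis falls in inflammation. The other members were not sorted by this property here.

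Ahsg rose with Rab5 siRNA by 0.69 on the log2 scale, 1.61-fold, and all 4 of its values lay above those of the control siRNA. Serpina6 stood at 16.0% of its control siRNA level. Serpina7 had a mean 0.93 lower, with large differences between livers of the same group, and was not called. Ttr lay slightly lower on each of its 4 probe sets, by 0.17 to 0.41, and none was called. Alb and Rbp4 differed by 0.05 and -0.08. Between control siRNA and PBS, none of the 5 tested genes was called.

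The promoter sequences below are those of the gene that rose (Ahsg), the gene with the smallest SD within both siRNA groups (Alb) and the gene with the widest spread among control livers (Serpina7). They are the 250 bases before the annotated start of transcription, 5′ to 3′ on the strand of the gene, from RefSeq on the mouse build GRCm38.p6. The Alb stretch is chr5:90460620-90460869 on the plus strand, that of Ahsg chr16:22891765-22892014 on the plus strand, and that of Serpina7 chrX:139085237-139085486 on the minus strand. The table used had 2 entries for Serpina7, of which the first is shown. Capitals mark matches to a short list of motifs searched on both strands.
Alb: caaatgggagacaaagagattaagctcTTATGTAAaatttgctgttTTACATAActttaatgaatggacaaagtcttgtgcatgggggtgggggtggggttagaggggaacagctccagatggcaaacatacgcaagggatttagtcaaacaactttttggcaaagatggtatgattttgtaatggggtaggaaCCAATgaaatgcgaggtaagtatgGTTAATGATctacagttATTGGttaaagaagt
Ahsg: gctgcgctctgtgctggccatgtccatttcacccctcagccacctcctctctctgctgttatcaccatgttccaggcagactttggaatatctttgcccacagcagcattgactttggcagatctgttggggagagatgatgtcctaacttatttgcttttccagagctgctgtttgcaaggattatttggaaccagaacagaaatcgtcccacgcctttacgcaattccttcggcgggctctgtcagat
Serpina7: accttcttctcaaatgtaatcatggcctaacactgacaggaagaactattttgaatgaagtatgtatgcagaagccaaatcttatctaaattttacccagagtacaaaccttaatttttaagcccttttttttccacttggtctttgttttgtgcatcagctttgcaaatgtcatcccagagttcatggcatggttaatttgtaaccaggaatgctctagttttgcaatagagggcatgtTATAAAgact

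For the D-box of the PAR bZIP factors Dbp, Tef and Hlf, only the letters TTATGTAA were searched. Any D-box site with other letters is therefore left unmarked. The Alb stretch held 2 matches to TTATGTAA. One lay on the strand of the gene, 223 to 216 bases before the start, and the other on the opposite strand, 204 to 197 bases before it. Of 32851 promoter stretches of the same length, 0.819% held these letters. Alb also held 1 match to the HNF1-type letters GTTAATNAT, 32 to 24 bases before the start, found in 0.737% of the stretches. It held CCAAT on the gene's strand, 56 to 52 bases before the start, and on the opposite strand, 15 to 11 bases before it. CCAAT occurred in 33.8% of all stretches. Serpina7 held TATAAA, 10 to 5 bases before the start, which occurred in 12.4%. Ahsg held none of the letters searched, which also included TTGCNNCAA (C/EBP-type, 1.74% of stretches) and TGTTTAC (FOXA-type, 3.17%). None of the matches overlapped another. A match is a description of letters and not evidence of binding, and the absence of one says only that these letters are not in this window. G and C made up 39.2% of the Alb stretch, 50% of that of Ahsg and 36% of that of Serpina7.

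Values are log2 signals summarised by robust multi-array average (RMA), and differences are between group means on that scale. A gene was called at an adjusted p (Benjamini-Hochberg, limma) under 0.05. For Rab5 siRNA against control siRNA, 2993 of 12855 genes were called (23.3%), 13.8% of all genes as higher and 9.51% as lower, and the groups did not overlap in 25%. The targeted genes Rab5a and Rab5c fell by 1.81 and 1.99, while the dim Rab5b, at -0.24, was not called. Array medians lay between 4.29 and 4.37 and no array duplicated another. A principal component analysis put Rab5 array 1 nearer the controls than the other Rab5 arrays (17.5 against 30.3 to 38.3 on its leading axis, which held 60.7% of the variance). The hepatocyte markers Apoa1, Apob and Fgb and the others on the list were all measured, 11 of 11, as in liver tissue.

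Alb, the general carrier, differed least between the siRNA groups. The control siRNA arrays gave 14.08, 14.03, 14.05 and 14.08, the PBS arrays 14.01 and 13.90 (13.895 before rounding), and the Rab5 arrays 14.11, 14.10, 14.08 and 14.14. The 2 siRNA groups overlapped, although each Rab5 array lay above the control siRNA array of the same number, and both PBS arrays lay below all siRNA arrays. Alb averaged 14.06 ± 0.0264 (SD, n = 4) with control siRNA and 14.11 ± 0.0229 (SD, n = 4) with Rab5 siRNA. The difference of 0.05 (SE 0.0820, 95% interval -0.13 to 0.23, adjusted p = 0.720) was not called, and the interval runs from 0.915-fold to 1.17-fold. This SE is moderated by limma with the spread of all genes, and it is larger than the SD of Alb in either siRNA group. The SD of Alb was among the smallest of all genes, with 0.638% of genes below it in the control siRNA group and 0.342% in the Rab5 group. Its signal lay 0.32 to 0.58 below the brightest probe set of each array, and how far signals this near the top are compressed was not tested.

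Alb lies between Ankrd17 and Afp in the RefSeq gene order, with Afm beyond Afp. Afp, the fetal counterpart of albumin, rose from 4.07 ± 0.148 to 7.58 ± 0.850 (SD, n = 4 each), a difference of 3.51 (SE 0.303, adjusted p = 4.99e-06). Its control value is below the table median of 4.33, where changes are compressed. Afm, the vitamin E-binding afamin, differed by -0.23 (SE 0.121, adjusted p = 0.202). Thus 1 of the 2 measured relatives of albumin was called, beside 23.3% of all genes, while Alb itself stood at 0.05.

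Ahsg was the 1 member called among the 5 tested, beside 23.3% of all genes. Its control siRNA arrays gave 12.34, 12.27, 12.41 and 12.42, its PBS arrays 12.48 and 12.38, and its Rab5 arrays 13.12, 12.92, 13.12 and 13.04. Every Rab5 array lay above all 6 arrays without Rab5 siRNA, and the PBS and control siRNA groups overlapped. The mean rose from 12.36 ± 0.0673 to 13.05 ± 0.0959 (SD, n = 4 each), a difference of 0.69 (SE 0.0901, 95% interval 0.49 to 0.88, adjusted p = 0.000111). In fold terms this was 1.61, with an interval of 1.41 to 1.84. Of all genes, 91.7% had a smaller absolute difference. Ahsg was called in 19 of 19 alternative settings, with differences from 0.63 to 0.73.

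Fetub, which encodes fetuin-B and is the nearest protein-coding neighbour of Ahsg on one side, stood at 0.02 (SE 0.12, adjusted p = 0.917), and its sign changed with the setting. Hrg, the histidine-rich glycoprotein gene next in order, differed by -0.25 (SE 0.0981, adjusted p = 0.0900). It was called with array weights (adjusted p = 0.0473) and with a trended variance prior (0.0475). The kininogen gene Kng1 differed by -0.09 (adjusted p = 0.515). None of these 3 measured relatives of Ahsg was called against control siRNA, beside 23.3% of all genes. Their median difference was -0.09 against 0.00 (0.0026) over all genes. Against PBS, 1 of the 3 was called, beside 17.1% of all genes, namely Hrg at -0.44 (adjusted p = 0.0233). The profiles most like that of Ahsg over the 10 arrays, by root mean square log2 distance among 12228 genes, were those of Nans at 0.0613, Kank2 at 0.0659 and Map4 at 0.0712. The profile of Ahsg itself departed from its mean by 0.334 on this measure.

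**Figure D1:**
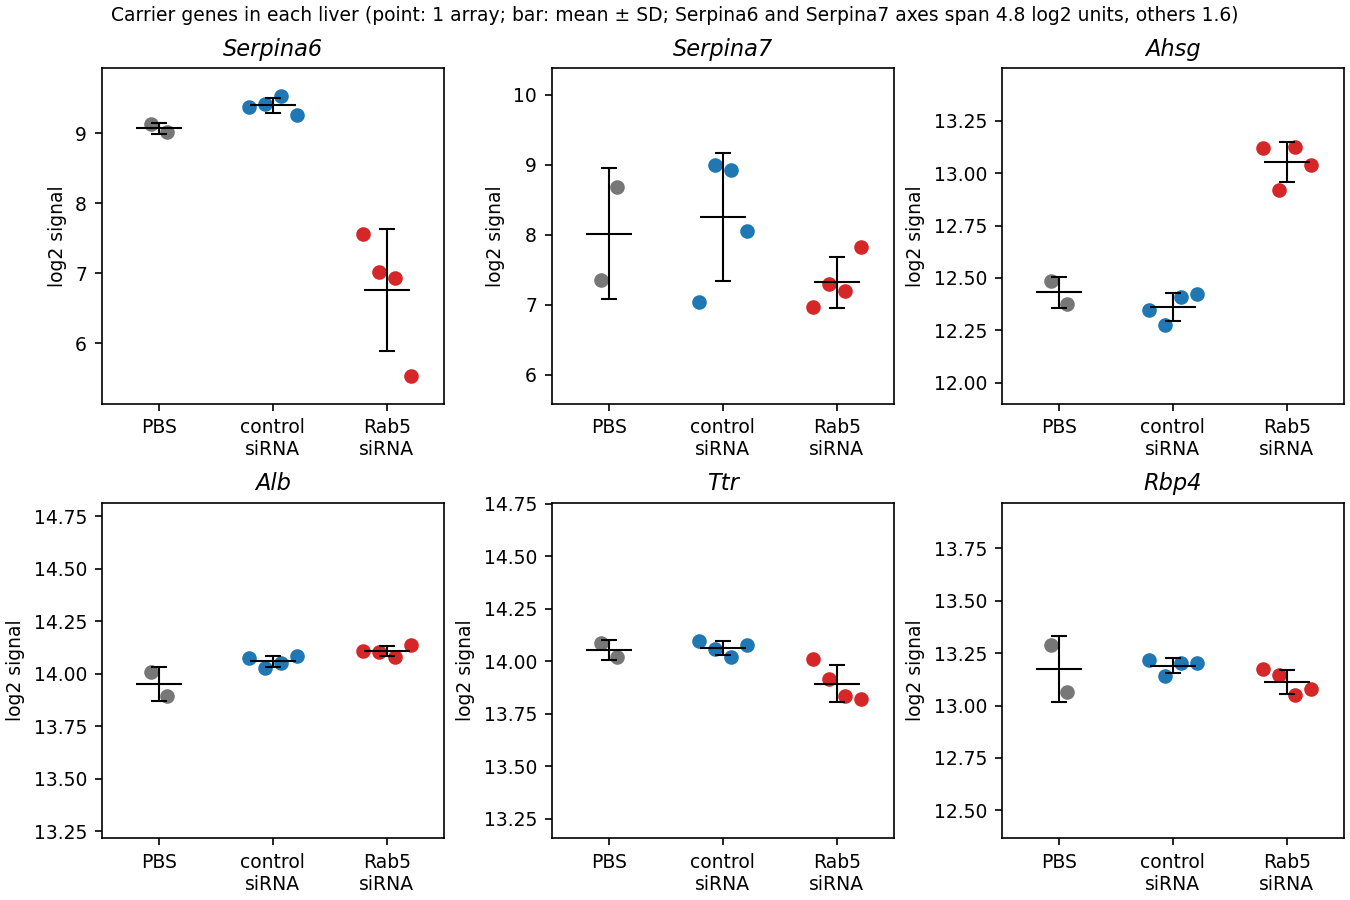
Log2 signal of the 6 carrier genes in each liver (vertical axes, log2 units) by group (horizontal axes), with a point for each array and bars for mean ± SD. The Rab5 arrays of Ahsg, from 12.92 to 13.12, lie above all others, those of Serpina6 lie below all others and spread from 5.53 to 7.57, and Serpina7 spreads from 7.04 to 8.99 within the control siRNA group. The vertical span is wider for Serpina6 and Serpina7 than for the other genes.

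Serpina6, which encodes the glucocorticoid carrier, had the largest difference of the members and was picked for it. The control siRNA arrays gave 9.38, 9.43, 9.53 and 9.26, the PBS arrays 9.13 and 9.02, and the Rab5 arrays 7.57, 7.02, 6.93 and 5.53. The Rab5 arrays lay below all the others, and the control siRNA arrays lay above both PBS arrays. The means were 9.40 ± 0.112 (SD, n = 4) with control siRNA and 6.76 ± 0.868 (SD, n = 4) with Rab5 siRNA. This is a difference of -2.64, or 6.23-fold lower. It was the 7th lowest of 12855 genes, between Moxd1 at -2.74 and Mcm10 at -2.63.

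The Rab5 livers were far from uniform in Serpina6, with a 4.11-fold range between array 1 and array 4. The SD of 0.868 was larger than that of 99.8% of genes in that group, where the median SD was 0.161. With control siRNA the range was 1.21-fold, and 28.8% of genes had a smaller SD. Without Rab5 array 4 the difference was -2.23 and without Rab5 array 1 it was -2.91. In the same 4 arrays Rab5a stood at 6.28, 7.10, 6.91 and 7.16 and Rab5c at 7.36, 7.22, 7.28 and 6.99. Array 1, with the highest Serpina6, had the lowest Rab5a and the highest Rab5c. The profiles nearest to that of Serpina6 were those of Upp2 at a distance of 0.384, Csad at 0.430 and Dct at 0.440, against 1.34 for the departure of Serpina6 from its own mean. These genes differed by -3.07, -1.97 and -2.38.

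Serpina6 lies in a cluster of clade A serpin genes. Its measured neighbour Serpina10, the protein Z-dependent protease inhibitor gene, stood at 0.33 (SE 0.162, adjusted p = 0.169). Of 9 other clade A serpins measured, 0 were called higher and 2 lower, beside 13.8% and 9.51% of all genes, with a median of -0.04. Serpina4-ps1, a pseudogene by name, fell from 8.25 ± 0.512 to 5.95 ± 1.03 (SD, n = 4 each), a difference of -2.30 (SE 0.401, adjusted p = 0.000999). Serpina9 fell by 1.03 (SE 0.150, adjusted p = 0.000247), from a signal of 4.46 near the table median. Genes of this cluster are similar in sequence, and how far their probe sets share signal was not tested.

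Serpina7, the thyroid hormone carrier, differed more between livers of 1 group than between groups. The control siRNA arrays gave 7.04, 8.99, 8.93 and 8.05, the PBS arrays 7.36 and 8.68, and the Rab5 arrays 6.97, 7.29, 7.20 and 7.83. All 3 groups overlapped, and the array numbered 1 was the lowest of its group in each. The control siRNA range was 3.88-fold. Its SD of 0.917 exceeded that of 99.9% of genes, where the median SD was 0.152.

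The mean of Serpina7 went from 8.25 ± 0.917 to 7.32 ± 0.364 (SD, n = 4 each), a difference of -0.93 (SE 0.389, 95% interval -1.77 to -0.09, adjusted p = 0.105) that was not called. The numbers in the titles were taken to pair the siRNA arrays, by a check given with the processing that does not settle it. At each of the 4 numbers the Rab5 array lay below the control siRNA array of the same number. With the replicate number as a block the difference was called (SE 0.260, adjusted p = 0.0220). Without control array 1 it was -1.33 (adjusted p = 0.00892), without the arrays numbered 2 it was -0.67 (adjusted p = 0.367), and with array weights it was -1.05 (adjusted p = 0.0318). Over 19 alternatives it ranged from -1.33 to -0.67 and was called in 3, these being the block, the weights and the one without control array 1.

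**Figure D2:**
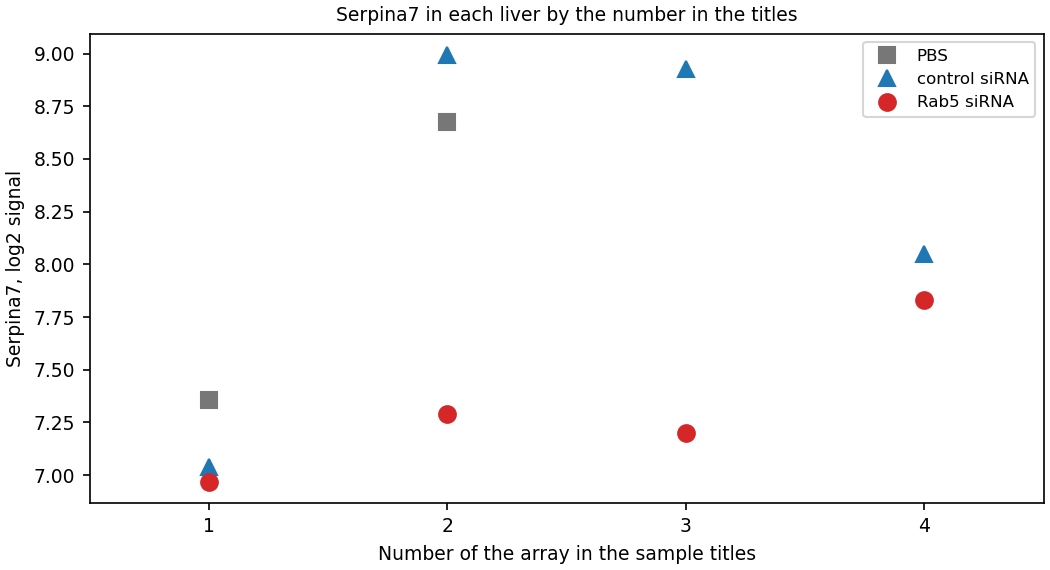
Serpina7 log2 signal (vertical axis) of each liver by the number in its title (horizontal axis), with squares for PBS, triangles for control siRNA and circles for Rab5 siRNA. At number 1 the 3 groups lie between 6.97 and 7.36, while at number 2 the control siRNA array is at 8.99 and the Rab5 array at 7.29.

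Ttr, the carrier of thyroxine and partner of Rbp4, was measured by 4 probe sets that target the same transcript and are not independent. On 1454608_x_at, the brightest, which stood for the gene, the control siRNA arrays gave 14.10 (14.095), 14.06, 14.02 and 14.08. The PBS arrays gave 14.09 and 14.02, and the Rab5 arrays 14.01, 13.91, 13.83 and 13.82. All Rab5 arrays lay below all the others, by a small margin for array 1. The means were 14.06 ± 0.0318 and 13.89 ± 0.0884 (SD, n = 4 each), a difference of -0.17 (SE 0.0862, 95% interval -0.36 to 0.02, adjusted p = 0.180) that was not called. This probe set lay 0.36 to 0.64 below the brightest of each array.

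The Ttr probe set with the largest difference was 1451580_a_at. Its control siRNA arrays gave 13.43, 13.28, 13.42 and 13.47, its PBS arrays 13.49 and 13.21, and its Rab5 arrays 13.37, 12.94, 12.84 and 12.81. Rab5 array 1 lay within the control range and the other 3 Rab5 arrays below it. The difference was -0.41 (SE 0.126, 95% interval -0.68 to -0.14), with an adjusted p of 0.0518 in the fit over all 45037 probe sets, of which 10.9% were called. With the replicate block it was called (adjusted p = 0.0289), as it was with array weights (0.0177) and a trended variance prior (0.0208). Without Rab5 array 1 it was -0.53 (adjusted p = 0.00384). Taking the most variable probe set for each gene made Ttr a called gene (adjusted p = 0.0375).

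The other Ttr probe sets had smaller differences. That of 1455913_x_at was -0.18 (SE 0.0955, adjusted p = 0.298) and that of 1459737_s_at -0.24 (SE 0.0961, adjusted p = 0.145), which was called only with a trended variance prior (adjusted p = 0.0495). On both, Rab5 array 1, at 13.62 and 13.60, lay within the control siRNA range, and Rab5 arrays 2, 3 and 4 lay below it. All 4 Ttr probe sets therefore had negative differences, and 0 of 4 were called by limma over all probe sets.

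Rbp4, the retinol carrier, gave 13.22, 13.14, 13.20 and 13.20 with control siRNA, 13.29 and 13.06 with PBS, and 13.18, 13.14, 13.05 and 13.08 with Rab5 siRNA. All groups overlapped. The means were 13.19 ± 0.0352 and 13.11 ± 0.0586 (SD, n = 4 each), a difference of -0.08 (SE 0.0885, 95% interval -0.27 to 0.11, adjusted p = 0.567).

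Over the 5 tested members, 1 was called higher and 0 lower for Rab5 siRNA against control siRNA, beside 13.8% and 9.51% of all genes. The median difference of these members was -0.08, and that over all genes was 0.0026. Of these 5, the groups did not overlap for Ahsg and Ttr, beside 25% of all genes.

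**Figure D3:**
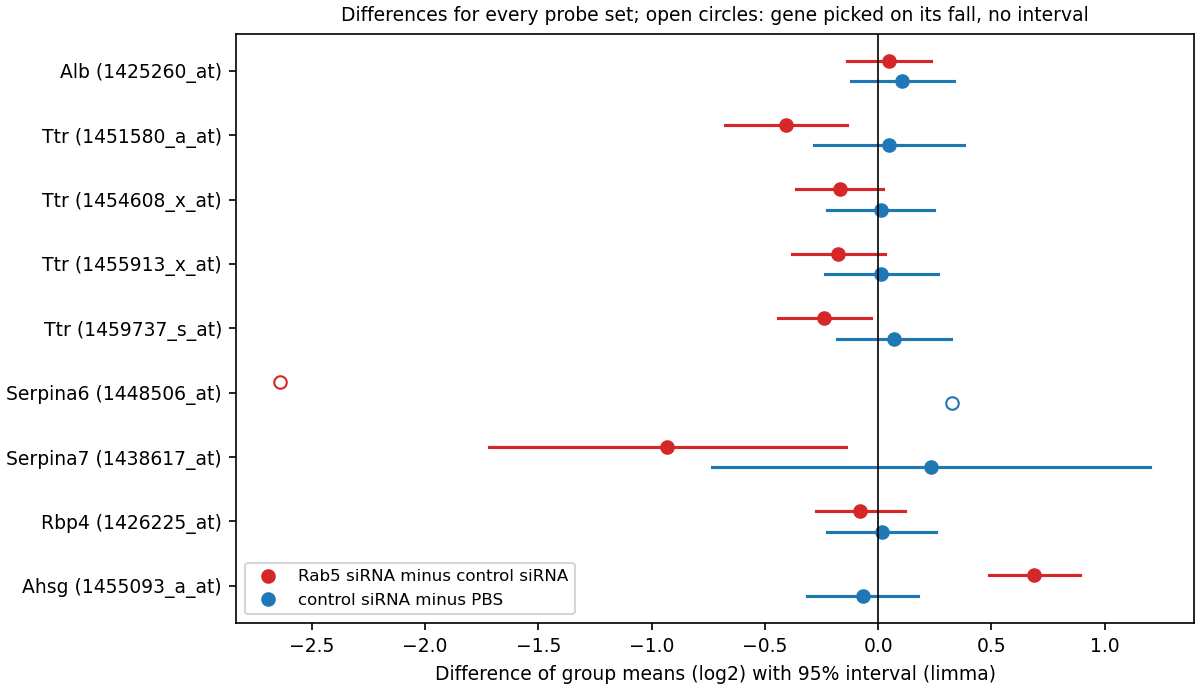
Differences of group means (horizontal axis, log2 units) for the 9 probe sets (vertical axis), from the fit over all probe sets, with 95% intervals. Red is Rab5 siRNA minus control siRNA and blue control siRNA minus PBS. The red interval of Ahsg lies wholly above 0, from 0.49 to 0.89, and open circles without interval mark Serpina6 at -2.64 and 0.32.

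The control siRNA in nanoparticles was compared with PBS to see what injection of a non-targeting RNA did to the carriers. None of the 12855 genes was called by limma in this comparison (0%), although 1 to 18 were called in 5 of the alternatives. The 554 genes with an unadjusted limma p under 0.05 were no more than that threshold alone would pass. Ahsg differed by -0.07 (SE 0.110), Ttr by 0.01 (SE 0.106), Rbp4 by 0.02 (SE 0.108), Alb by 0.11 (SE 0.10) and Serpina7 by 0.23 (SE 0.476), each with an adjusted p of 0.999. The sign of the Serpina7 value turned when single arrays were left out, with values from -0.43 to 0.89. With 2 PBS arrays the intervals are wide, that of Ahsg running from -0.31 to 0.17. Serpina6 stood 0.32 higher with control siRNA, 1.25-fold. Of the 5 tested members, the groups did not overlap for Alb, beside 13% of all genes.

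Rab5 siRNA was also compared with PBS, which shares its Rab5 arrays with the first comparison and its PBS arrays with the second, and 17.1% of genes were called. Of the 5 tested members 1 was called, Ahsg, at 0.62 (SE 0.110, 95% interval 0.38 to 0.86, adjusted p = 0.00159), 1.54-fold. Alb stood at 0.16 (adjusted p = 0.343), Ttr at -0.16 (0.361), Rbp4 at -0.06 (0.761) and Serpina7 at -0.70 (0.375). The Serpina7 value moved between -1.36 without PBS array 1 and -0.04 without PBS array 2. Serpina6 stood at -2.32, which is 20.1% of the PBS level and ranked 14th lowest. Of the 5 tested members, the groups did not overlap for Alb, Ahsg and Ttr, beside 37.8% of all genes. For Serpina6 the order of the groups was Rab5 siRNA, PBS, control siRNA, from low to high. For Ahsg it was control siRNA, PBS, Rab5 siRNA, and the lower 2 did not differ beyond their spread.

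Genes that act with the hormones and vitamins carried by these proteins moved in both directions. Over all genes, 13.8% were called higher and 9.51% lower against control siRNA, and 17.1% were called against PBS. The counts in this and the following lists are to be read beside these shares. Of 15 glucocorticoid action genes measured, 4 were called higher and 3 lower for Rab5 siRNA against control siRNA, with a median of -0.06. Tat, the tyrosine aminotransferase and a glucocorticoid-induced gene, fell by 1.37 (SE 0.123, adjusted p = 6.38e-06). Hsd11b1, which regenerates active glucocorticoid in liver, fell by 0.67 (SE 0.161, adjusted p = 0.00841), while the metallothionein gene Mt2 rose by 1.40 (SE 0.266, adjusted p = 0.00189). Mt1, Fkbp5 and Sgk1 were also called higher, at 0.78, 0.52 and 0.40, and Tsc22d3 lower, at -0.62. Against PBS this list had 0 genes higher and 3 lower, and Mt2 stood at 0.46 (adjusted p = 0.395), with control siRNA minus PBS at -0.94. The receptor gene Nr3c1, named after its value was seen, stood at -0.03 (adjusted p = 0.915).

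Of 11 thyroid hormone action genes, 1 was called higher and 3 lower, with a median of -0.13. Dio1, the type 1 deiodinase, fell from 10.45 ± 0.162 to 9.06 ± 0.317 (SD, n = 4 each), a difference of -1.39 (SE 0.150, adjusted p = 2.56e-05). The lipogenic gene Thrsp fell by 1.96 (SE 0.239, adjusted p = 6.48e-05). Against PBS, Thrsp stood at -1.05 (adjusted p = 0.0251), with control siRNA minus PBS at 0.91 (adjusted p = 0.962). Crym, encoding a thyroid hormone-binding protein of the cytosol, rose by 1.28 (SE 0.149, adjusted p = 4.69e-05) from a dim 3.61. The receptor gene Thrb, also named after its value was seen, stood at -0.13 (adjusted p = 0.453) near the table median.

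Of 22 retinoid handling genes, 3 were called higher and 7 lower, with a median of -0.03, while Rbp4 stood at -0.08. Retsat, the retinol saturase, fell by 1.74 (SE 0.244, adjusted p = 0.000192), and Rdh16, a retinol dehydrogenase, by 1.08 (SE 0.156, adjusted p = 0.000242). Cyp26a1, which breaks down retinoic acid, fell by 1.48 (SE 0.203, adjusted p = 0.000157) to 3.95, below the table median. Rdh11, a retinal reductase, rose by 0.98 (SE 0.145, adjusted p = 0.000299). Of 5 vitamin D genes, 1 was higher and 1 lower. Dhcr7, which uses up the vitamin D precursor in cholesterol synthesis, rose by 1.12 (SE 0.152, adjusted p = 0.000151), and Cyp27a1, a sterol and vitamin D hydroxylase, fell by 0.87 (SE 0.133, adjusted p = 0.000361).

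Receptors that take up or recycle plasma carriers were measured for 5 genes. Of these, 0 were called higher and 1 lower, beside 13.8% and 9.51% of all genes. Fcgrt, the neonatal Fc receptor that rescues albumin from degradation, fell from 9.87 ± 0.176 to 9.35 ± 0.276 (SD, n = 4 each). Its difference of -0.52 (SE 0.138, adjusted p = 0.0151) was not called without the arrays numbered 2 (-0.50, adjusted p = 0.0805). Lrp1, a large endocytic receptor, differed by -0.37 (SE 0.147, adjusted p = 0.0895), and without Rab5 array 3 by -0.48 (adjusted p = 0.0396). Its value depended on the probe set. The mean of its kept probe sets gave -0.15 (adjusted p = 0.558) and the most variable one 0.07 (adjusted p = 0.859). Against PBS, 2 of the 5 receptors were called lower, beside 17.1% of all genes called. Lrp1 was one of them, at -0.69 (adjusted p = 0.0182).

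Other secreted binding proteins, 16 measured, had 4 genes higher and 2 lower, with a median of 0.19. Igfbp3 fell by 1.27 (SE 0.268, adjusted p = 0.00383) and Igfals, its partner in the circulating IGF complex, by 1.04 (SE 0.177, adjusted p = 0.000883). The copper protein gene Cp rose by 0.56 (SE 0.138, adjusted p = 0.00953). Against PBS, Igfals was called at -1.21 (adjusted p = 0.00166), while Igfbp3 at -0.76 (0.141) and Cp at 0.49 (0.0657) were not. Lcn2, the siderophore-binding lipocalin, was higher by 2.45 (SE 0.798, adjusted p = 0.0412). That call ended when any one of the 4 control siRNA arrays or of Rab5 arrays 2, 3 and 4 was left out (adjusted p from 0.0509 to 0.123). Of 20 genes listed as positive acute phase, which include Cp and Lcn2, 2 were higher and 3 lower, with a median of 0.28. Against PBS the same list had 0 higher and 3 lower, with a median of -0.14, and its median for control siRNA against PBS was -0.26. Lcn2 stood at 1.02 against PBS (adjusted p = 0.552). Saa4, a constitutive member of its family that the list counts, was among the lower ones, at -1.42 (SE 0.129, adjusted p = 6.97e-06). Saa1, Saa2 and Saa3 stood at 0.57, 0.73 and 0.71 against control siRNA and were not called. Against PBS they stood at -0.28, -1.28 and 0.08, also not called.

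Of 23 liver transcription factors, 3 were called higher and 8 lower, with a median of -0.17. The D-box factors whose letters occur in the Alb promoter were all lower than with control siRNA. Dbp differed by -1.95 (SE 0.354, adjusted p = 0.00133), Tef by -1.05 (SE 0.186, adjusted p = 0.00111) and Hlf, named after its value was seen, by -0.71 (SE 0.121, adjusted p = 0.000888). Against PBS, Dbp stood at -0.25 (adjusted p = 0.767), Tef at -0.47 (adjusted p = 0.188) and Hlf at -0.89 (adjusted p = 0.000989). Dbp stood 1.70 higher with control siRNA than with PBS (SE 0.433, adjusted p = 0.602). Cebpa, a basic leucine zipper factor of hepatocytes, fell by 0.88 (SE 0.153, adjusted p = 0.00101). Alb stood at 0.05 in the same comparison.

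**Figure D4:**
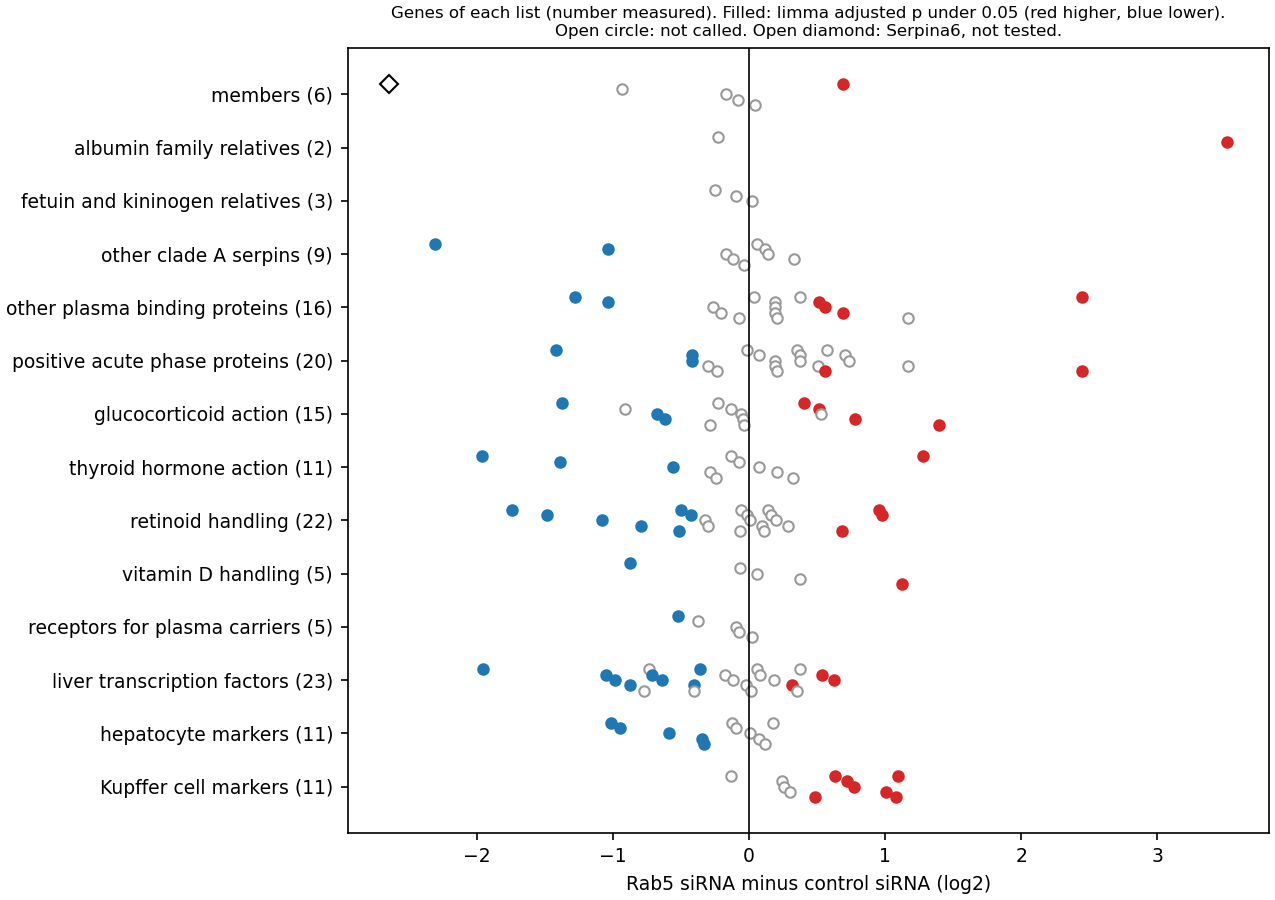
Differences for Rab5 siRNA minus control siRNA (horizontal axis, log2 units) of each measured gene in 14 lists (vertical axis, number measured in brackets). Filled points passed an adjusted p of 0.05 (red higher, blue lower), open circles did not, and the open diamond is Serpina6, not tested. The members hold 1 filled point, Ahsg at 0.69, while the Kupffer cell markers hold 7 filled points, all higher.

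Markers of liver cell types moved with the same contrast, in which 13.8% of all genes were called higher and 9.51% lower. Of 11 hepatocyte markers, 0 were higher and 5 lower, with a median of -0.12. Their summed linear signal was 77968 to 80844 in control siRNA arrays, 80789 to 82029 in PBS arrays and 68263 to 70001 in Rab5 arrays. Cyp2e1 fell by 0.95 (SE 0.145, adjusted p = 0.000362). The markers Apoa1, Ttpa, Fgb and Apoc3 stood at 0.18, 0.12, 0.07 and 0.01 and were not called, so the fall was not seen for all hepatocyte markers. Apoa1 and Apoc3 were bright, at 13.90 and 13.55 with control siRNA. Apoa2, at 13.84, was bright as well and was called lower, at -0.33 (adjusted p = 0.0133). How far such bright signals are compressed was not tested. Of 11 Kupffer cell markers, 7 were higher and 0 lower, with a median of 0.63. Their summed signal was 6547 to 7942 with control siRNA, 6706 to 7481 with PBS and 8931 to 12084 with Rab5 siRNA. Rab5 array 1 had the lowest mean Kupffer marker level of its group, 8.74 against 9.25 to 9.29, and also the highest Serpina6 and Ttr. Of 12 stellate markers 4 were higher and 0 lower, and 0 of 5 lymphocyte and 0 of 5 myeloid markers were higher, with 1 lower in each. The part of cell composition in the differences of Serpina6, Ttr, Serpina7 and Ahsg was not tested.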

How the data were processed

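RNA of 10 mouse liver samples was hybridised to Affymetrix mouse expression arrays. The deposited table holds log2 values. Per the submitters' processing notes, Affymetrix Expression Console, RMA and Partek 6.6 were used. RMA equalises the arrays' distributions, which hides a shift common to all transcripts. The few arrays per group limit precision. Probe sets were named by the platform annotation supplied with the table, and 64 control probe sets were left out. For tests by gene, probe sets above the table median (4.33) in at least 2 arrays were kept (24281), and the one with the highest mean stood for its gene (12855 genes). A linear model with 3 group means over the 10 arrays was fitted in limma 3.58.1 under R 4.3.3 (lmFit, then eBayes), and adjusted p (Benjamini-Hochberg) and moderated SE come from that fit. Moderation draws the spread of each gene towards that of all genes, which raises the SE of genes with little spread. The same fit without filter covered 45037 probe sets. The model was tested on simulated data.

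Same-numbered control and Rab5 siRNA arrays deviated together, with correlations over genes of 0.39, 0.15, 0.19 and 0.31, all above 0.1. Unlike-numbered arrays passed 0.1 as well for Rab5 array 2 with control array 4 (0.20) and Rab5 array 4 with control array 2 (0.18). The other unlike-numbered pairs lay from -0.33 to 0.05. The numbers from the titles were taken to pair the arrays, which the titles do not state and this check does not settle. A fit with the number as a block was an alternative. The other alternatives were the filter, the probe set per gene, the normalization, array weights, the variance prior, the groups in the fit and arrays left out.

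The members and the 19 other gene lists, with 188 of 227 genes measured, were chosen with earlier results of these data known. Named genes were the members, up to 4 called genes with the largest change per list (or 2 of the largest where fewer than 2 were called), the Rab5 genes, and the 3 genes most like Serpina6 and Ahsg in profile. Some further genes of the lists were named after their values were seen. RefSeq gene order (GRCm38.p6) gave neighbours, described after their values were seen. No build is named for the array files.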

Additional observations from a re-analysis of the deposited data

Results flagged for a closer look

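Of 18 sets of 4 arrays examined, the 9 probe sets in each siRNA group, 1 held an array far from the others of its group. On the Ttr probe set 1459737_s_at, Rab5 array 1 was at 13.60, while the other Rab5 arrays lay between 13.34 and 13.37. The gap was 0.887 of the group's range, above Dixon's limit at the 95% level for 4 values. Chance alone passes this limit in about 5% of such sets.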

How the results depend on the processing

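Ahsg kept its direction and its call in all 19 alternatives for Rab5 siRNA against control siRNA, and Alb and Rbp4 were called in none. The number of tested members called was 1 in the main setting. It was 2 with the most variable probe set (Ahsg and Ttr), and 2 with array weights and with the replicate block (Ahsg and Serpina7 in both). With 1 array left out at a time it ranged from 1 to 2, the latter without control siRNA array 1. The paired analysis, with the replicate block, called 3712 genes and changed no call of another member gene (the Ttr probe set it called is given with the Ttr values). Genes called for Rab5 against control siRNA ranged from 2222 to 3420 with 1 array left out, and were 1801 without the arrays numbered 2. Those 2 arrays had Gapdh 3′ minus 5′ values of 2.86 (control siRNA) and 2.67 (Rab5 siRNA), each the highest of its group. Probe sets called were then 2934. For control siRNA against PBS, 0 genes were called in the main setting, 2 with quantile normalization, 3 with array weights, 1 with the replicate block, and 0 to 18 with 1 array left out (4 without control array 1 and 18 without control array 4). For Rab5 siRNA against PBS, 2201 were called, and 1113 to 2629 with 1 array left out, the lowest without PBS array 1 and 1294 without PBS array 2. The cause of these differences was not tested. Among the members and the other genes with values under the alternatives, no direction called in the main setting was reversed. The median of all genes shifted by less than 0.1 under either other scaling.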
